A study of Homo sapiens with 8 samples.

Results

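The comparison set 2 prostate cancer lines that express the androgen receptor, C4-2B and VCaP, against 2 lines known to lack its activity, DU145 and PC3, and asked which genes stand at different levels in the 2 classes whatever siRNA the cells had received. All 8 arrays of the series entered it, 4 in each class, chosen by the line named on each label. C4-2B is a bone-metastatic derivative of LNCaP, and VCaP was derived from a vertebral metastasis and carries a fusion of TMPRSS2 with ERG. DU145 came from a metastasis in the brain and PC3 from one in bone. Cells of each line received either non-targeting siRNA or DNAPK siRNA for 48 hours, with 1 array for each, so both classes hold both treatments equally. C4-2B and PC3 were grown in RPMI1640, and DU145 and VCaP in DMEM, so each medium also occurs once in each class. Each line is a culture of 1 tumour's cells, and the 2 arrays of a line are not independent replicates. The replicates of a class are therefore its 2 lines.

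In the prostate, the androgen receptor is a hormone-activated transcription factor that works with FOXA1, GATA2 and other lineage factors, and it drives the secretory programme of luminal cells, including the kallikrein proteases. Prostate cancer lines that lost this activity are known for basal, mesenchymal and inflammatory genes, among them receptors and matrix proteins that act through the YAP and TEAD and the AP-1 transcription factors. The level of the androgen receptor gene itself was not analysed here.

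Values are log2 RMA signals, on which a step of 1 is a 2-fold change, and every class difference is the mean of C4-2B and VCaP minus the mean of DU145 and PC3. A level is a probe set's own signal and is not compared between genes. Of 22395 genes with a probe set of 1 symbol, 16796 passed a filter on low signal, and the medians of the 8 arrays over all probe sets lay between 2.94 and 2.99. PRKDC, which encodes the catalytic subunit of DNA-PK and is the target of the siRNA, stood with non-targeting and DNAPK siRNA at 9.29 and 6.76 in C4-2B, 9.80 and 9.18 in VCaP, 9.17 and 8.08 in DU145, and 9.17 and 7.17 in PC3. It was lower with DNAPK siRNA in each line, least in VCaP, and its levels overlapped between the classes.

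The line labels were read against known markers. ERG, the oncogenic partner of the VCaP fusion, stood at 8.57 and 8.65 in VCaP and at 3.56 or less on every other array. KLK3, which encodes prostate-specific antigen, stood at 10.12 and 10.24 in C4-2B but at 4.46 and 4.75 in VCaP, with 2.94 to 3.84 in DU145 and PC3. The 4 arrays of C4-2B and VCaP were above the other 4, yet VCaP, a line known to make prostate-specific antigen, stood much nearer to DU145 and PC3 than to C4-2B for this probe set. CDH1, the epithelial cadherin, stood at 10.38 and 10.46 in C4-2B, 9.07 to 9.45 in DU145 and PC3, and between these in VCaP, a high signal in all 4 lines. Of 20 markers listed for immune cells, 11 passed the signal filter, and 1 of them (CD68, also a lysosomal protein of many cells) was lower by more than the gap of 1 described below, at 4.60 to 5.04 in C4-2B and VCaP and 7.06 to 7.94 in DU145 and PC3. Of 20 markers of fibroblasts, muscle and endothelium, 8 passed, and none of the 8 was apart by that gap.

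The main test compared 2 lines with 2 lines (limma on the 4 line means, Benjamini-Hochberg adjustment over 16796 genes), and it called 0 genes at an adjusted p of 0.05, or 0.0% of those tested. The smallest adjusted p was 0.0647, shared by 45 genes, and 21 genes higher and 66 genes lower in C4-2B and VCaP were below 0.1. At an unadjusted p under 0.05 it held 661 higher and 940 lower genes, 9.53% of all, where 839.8 in all would pass if no gene differed. Data were also simulated with the same number of lines and 200 changed genes of 16796. There, 40.8% of genes set to differ by 4 and 0.4% of those set to differ by 2 were called. These shares depend on how many genes change, which is not known for the real data. Taking the 8 arrays with the line as a random block, limma called 137 higher genes (0.816%) and 279 lower genes (1.66%). That fit counts arrays and applies 1 correlation within lines (0.765) to all genes, so its p-values are given below only as an alternative. A fixed term per line, which takes these 4 lines as the whole population, called 3600 higher (21.4%) and 3820 lower genes (22.7%), 44.2% in all. An exact permutation of 2 lines against 2 cannot give a 2-sided p below 0.333. Since no gene passed the main test, "higher" and "lower" below describe measured levels.

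A count that needs no model was the genes whose classes stood apart by 1 or more, meaning that the lowest array of one class exceeded the highest array of the other by at least 2-fold. There were 193 such genes higher in C4-2B and VCaP (1.15% of those tested) and 380 lower (2.26%). Their median difference was 2.57 (5.94-fold) for the higher and -2.79 (6.91-fold) for the lower genes. Of them, 163 and 351 were protein coding. The random block fit called 130 of the 193 and 272 of the 380. These genes were picked for their class difference on the same arrays, so a high share of calls follows from the selection. It is not separate evidence. On the side where they were low, 87 of the higher genes (45.1%) and 214 of the lower genes (56.3%) stood under 4 on all arrays, near the bottom of the signal range, where array signals are known to understate folds. A weaker count, no overlap of the arrays, held 1640 higher and 1844 lower genes, together 20.7% of those tested. With each array centred on its median, which moved the median difference of all genes from 0.02 to 0.12, these became 2232 and 1501, so the balance of the weaker count depends on that scaling. Genes apart by 1 or more stayed fewer on the higher side under it, at 225 and 332.

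**Figure D1:**
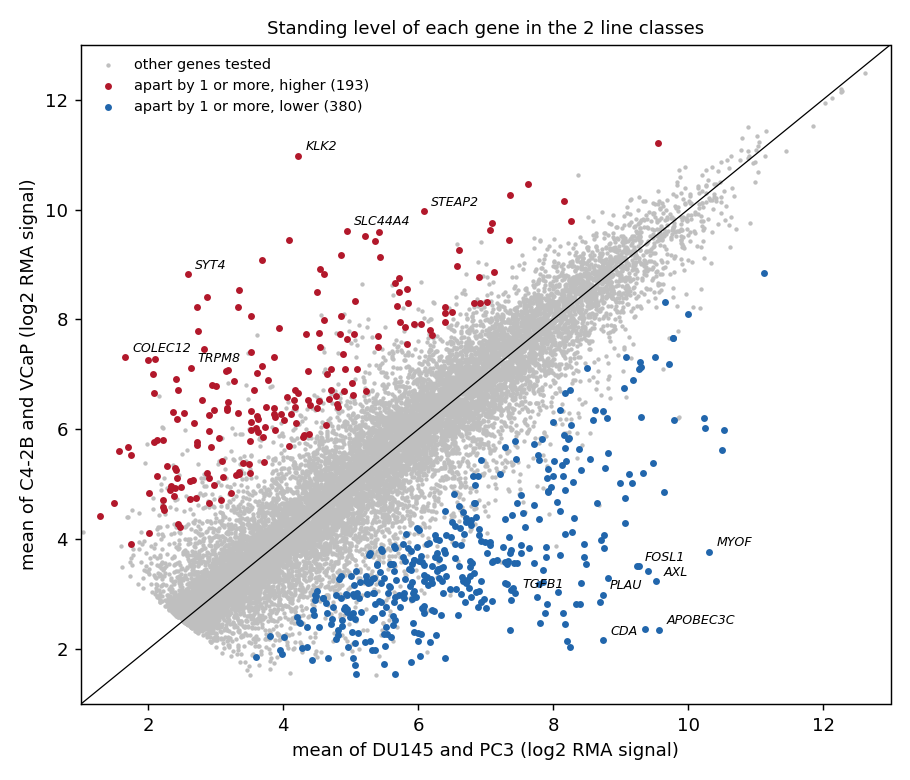
Mean log2 RMA signal of each of the 16796 genes in DU145 and PC3 (x axis) and in C4-2B and VCaP (y axis), with the line of equal level. The 193 genes apart by 1 or more and higher in C4-2B and VCaP are red and the 380 lower are blue; KLK2 and SYT4 lie far above the line, and CDA, MYOF and APOBEC3C far below it.

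Lines of the same class also differed from each other in many genes, though in fewer than lines of different classes. Between C4-2B and VCaP 747 genes differed by over 2, and between DU145 and PC3 712 did. Across the classes the number was 1037 for C4-2B and DU145, 1116 for C4-2B and PC3, 1263 for VCaP and DU145, and 1308 for VCaP and PC3. Across genes, the Pearson correlation of line means was 0.894 and 0.895 within the classes and 0.834 to 0.861 between them. These correlations are across genes of the same arrays and are a description. For 331 of the 573 genes apart by 1 or more, the lines of each class lay within 1 of each other.

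Among the 15 higher genes of smallest p, 5 are in the androgen receptor target list. KLK2, a kallikrein protease made by luminal cells, stood at 10.70 and 10.31 in C4-2B and 11.37 and 11.56 in VCaP, against 3.94 and 4.47 in DU145 and 4.42 and 4.07 in PC3. No array of one class came within 5.83 of the other. Its difference was 6.76 ± 0.42 (SE, 2 lines per class), or 108-fold, with an adjusted p of 0.0647 by limma on line means and 0.000715 with the random block. Each SE in this report is limma's moderated one, which draws a gene's own spread between lines towards that of all genes. It can therefore be larger or smaller than the gene's 2 lines per class alone would give. KLK4, another kallikrein, stood at 8.71 and 8.72 in C4-2B and 7.54 and 7.27 in VCaP, and between 3.41 and 3.64 in DU145 and PC3. TRPM8, a cold-activated calcium channel of prostate epithelium, stood at 7.30 and 7.24 in C4-2B, 7.40 and 6.56 in VCaP, 2.37 and 2.53 in DU145, and 2.62 and 2.99 in PC3. Its difference was 4.50 ± 0.30 (SE), 22.6-fold.

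TMPRSS2, a serine protease and the androgen-driven partner of the VCaP fusion, showed a different arrangement. It stood at 9.56 and 9.46 in C4-2B and 9.03 and 8.68 in VCaP, at 6.72 and 7.17 in PC3, and at 2.18 and 3.37 in DU145. The classes did not overlap, but DU145 and PC3 differed by more than PC3 and VCaP did. Its class difference of 4.32 ± 1.46 (SE) had an adjusted p of 0.473 by limma on line means and 0.12 with the random block. ACP3, prostatic acid phosphatase, was high chiefly in VCaP, at 10.17 and 9.98, against 5.54 and 5.15 in C4-2B and 2.35 to 4.73 in the other class.

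Of 39 listed androgen receptor targets, 32 passed the signal filter. Their median difference was 1.89, against 0.02 over all genes, and 31 of 32 were above 0. Of all 16796 genes tested, 8609 were above 0 and 8187 below, with 1.15% apart and higher and 2.26% apart and lower. Those shares also serve as the comparison for the lists below. Of the 32, 9 were apart by 1 or more, all higher in C4-2B and VCaP. The list was chosen with earlier results of these arrays known. Its counts are a description.

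Because androgen receptor binding bears on KLK3, part of its promoter is shown. The stretch lies at chr19:50854715-50854814 on the plus strand (GRCh38.p14, RefSeq), between 200 and 100 bases before the start site. Capitals mark the letters AGAACA, the core of an androgen receptor motif, found 170 bases before the start.
KLK3: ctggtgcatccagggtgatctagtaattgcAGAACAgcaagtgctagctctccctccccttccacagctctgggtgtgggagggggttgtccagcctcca
These letters on either strand of the 250 bases before the start occurred in 8.06% of the 12449 tested genes with a promoter in the table. They occurred in 13 of 144 promoters (9.03%) of genes apart and higher and in 13 of 286 (4.55%) of genes apart and lower. A match is only these letters, which are common by chance, and androgen receptor enhancers far from the start are not covered.

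**Figure D2:**
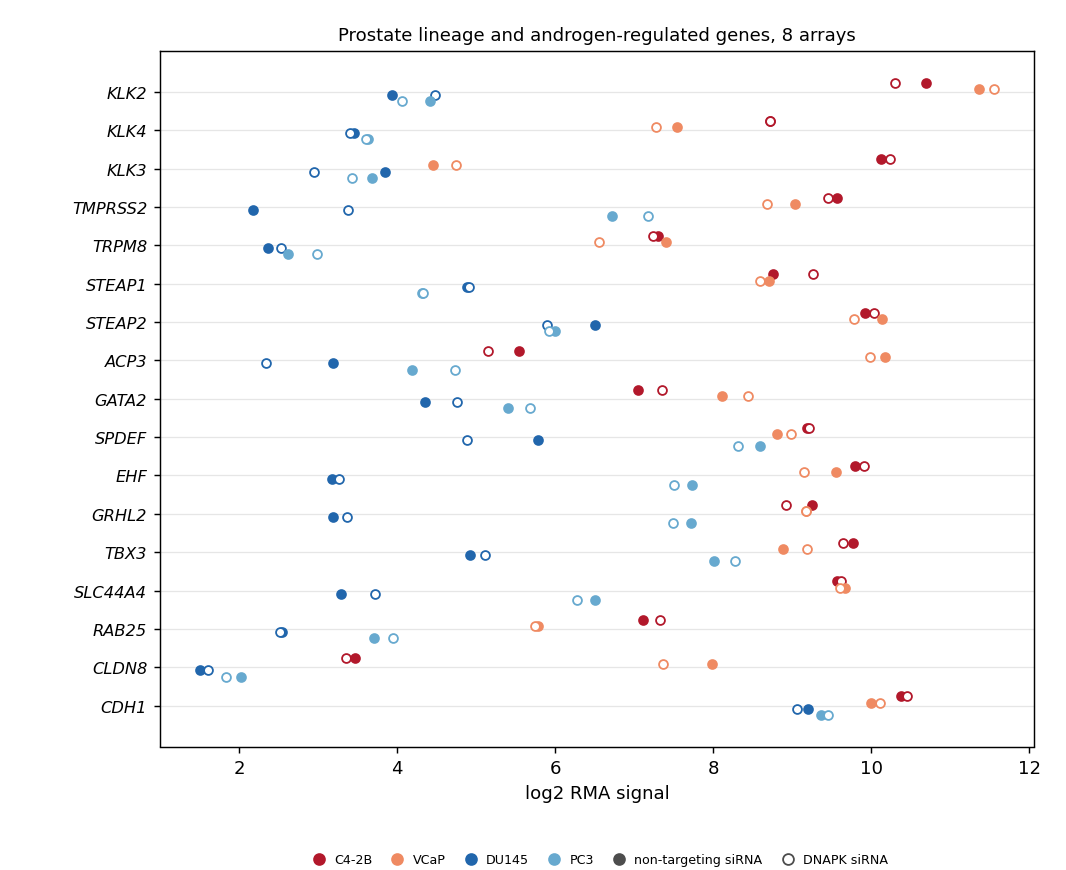
Log2 RMA signal (x axis) of 17 prostate lineage and androgen-regulated genes on the 8 arrays, with colours for lines, filled points for non-targeting siRNA and open points for DNAPK siRNA. For KLK2, KLK4, TRPM8, STEAP1 and STEAP2 both lines of a class sit together, while for TMPRSS2, EHF, GRHL2, TBX3 and SPDEF the PC3 points lie nearer to C4-2B and VCaP than to DU145.

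Several cell-surface genes of prostate epithelium were higher. STEAP1, a metalloreductase used as an antibody target, stood at 8.76 and 9.26 in C4-2B, 8.70 and 8.59 in VCaP, 4.89 and 4.91 in DU145, and 4.31 and 4.33 in PC3. Its neighbour STEAP2 stood at 9.78 to 10.14 in C4-2B and VCaP and at 5.90 to 6.51 in DU145 and PC3. SLC44A4, a choline transporter-like protein, stood at 9.56 to 9.67 in the first class, at 3.29 and 3.72 in DU145 and at 6.50 and 6.28 in PC3. The list of surface targets as a whole did not lean higher. Its median was -0.06 over 19 tested, with 9 above 0 and 10 below. Of the 19, 4 were apart and higher and 2 apart and lower. The latter included CD44, the hyaluronan receptor of basal and stem-like cells, at 2.37 to 3.89 against 6.44 to 8.38.

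Lineage transcription factors divided DU145 from PC3. GATA2, a partner of the androgen receptor, was higher in each line of the first class than in either of the other, at 7.05 and 7.35 in C4-2B and 8.11 and 8.43 in VCaP, with 4.35 and 4.76 in DU145 and 5.40 and 5.68 in PC3. EHF, an epithelial ETS factor, stood at 9.15 to 9.91 in C4-2B and VCaP and at 7.73 and 7.50 in PC3, but at 3.17 and 3.27 in DU145. GRHL2, which maintains epithelial junctions, had the same arrangement, at 8.92 to 9.25, 7.72 and 7.49 in PC3, and 3.19 and 3.36 in DU145. HOXB13, a homeobox factor of prostate identity, overlapped between the classes. It stood at 7.41 to 8.03 in C4-2B and VCaP, PC3 lay in that range, and DU145 stood at 2.07 and 2.36. FOXA1, the pioneer factor of the androgen receptor, differed by 1.30 and stood at 7.41 in DU145, 8.35 and 8.34 in PC3 and 8.94 to 9.59 in the other class. Of 20 lineage factors tested, 6 were apart and higher and 1 was apart and lower, with a median of 1.30 that became 0.32 without DU145. The exception was KLF5, a factor of basal and proliferating epithelium, at 4.52 to 5.79 against 7.49 to 8.92.

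SYT4, a vesicle-fusion synaptotagmin, stood at 9.15 and 9.72 in C4-2B and 9.16 and 7.25 in VCaP, and at 2.34 to 3.11 in DU145 and PC3, a difference of 6.23 ± 0.51 (SE) or 75.2-fold. Its VCaP array with DNAPK siRNA was the lowest of its class, but still 4.13 above the highest of the other. STXBP5L, a regulator of vesicle docking, stood at 6.82 to 7.92 against 1.85 to 2.33. GRIN3A, a glutamate receptor subunit, stood at 7.98 and 7.99 in C4-2B and 5.79 and 4.86 in VCaP, against 1.85 to 2.25. CHRNA2, a nicotinic receptor subunit that is also in the androgen receptor target list and counted there, stood at 6.11 to 6.69 against 2.78 to 3.14. The neuroendocrine marker CHGB (chromogranin B) barely separated C4-2B, at 2.78 and 2.82, from DU145 and PC3, at 2.01 to 2.68. The gap was 0.10, at low signals, while VCaP stood at 5.65 and 4.45. Of 25 neuroendocrine and neural genes tested, 17 were above 0 and 1, GRIN3A, was apart and higher. Their median of 0.54 became 0.03 without VCaP and 0.21 with no signal filter.

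ZBTB16, a zinc-finger factor induced by androgen and glucocorticoid, stood at 6.22 to 6.41 in C4-2B and VCaP and at 2.20 to 2.94 in DU145 and PC3. COLEC12, a scavenger receptor, stood at 6.56 to 7.88 against 1.33 to 1.82. PRUNE2 stood at 7.93 to 8.93 against 2.65 to 4.25. TOX3 stood at 6.01 to 7.28 against 2.32 to 3.02, and LRRC26, which modulates potassium channels, at 6.88 to 7.83 against 3.39 to 3.65. DNASE2B stood at 6.14 to 8.21 against 2.74 to 2.90 and SYNE4, which links the nucleus to the cytoskeleton, at 5.66 to 6.04 against 2.73 to 3.26. These genes were chosen as having no overlap between the classes.

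ACSL1, which activates long-chain fatty acids, stood at 9.74 and 9.47 in C4-2B, 7.85 and 7.92 in VCaP, and 5.35 to 6.13 in DU145 and PC3. ACACA, the rate-limiting carboxylase of fatty acid synthesis, stood at 9.57 to 9.95 against 7.93 to 8.57. Both were the only genes apart by 1 or more among 30 sterol and fatty acid genes, whose median difference was 0.12. In 38 secretory pathway genes the median was 0.48, or 0.17 without C4-2B, and 3 were apart and higher, including CREB3L4, a membrane-bound factor of the secretory pathway, at 6.37 to 6.88 against 4.95 to 5.23. Steroid synthesis and inactivation genes had a median of 0.07 over 15 tested. Of these 1, SLCO1B3, was apart and lower, at 1.71 to 2.21 against 5.18 to 5.54.

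On the lower side, AXL, a receptor tyrosine kinase linked to invasion, stood at 3.64 and 3.59 in C4-2B, 2.74 and 2.99 in VCaP, 10.10 and 9.95 in DU145, and 8.88 and 9.20 in PC3. Its difference was -6.29 ± 0.50 (SE), or 78.4-fold, with an adjusted p of 0.0647 by limma on line means and 0.000637 with the random block. MET, the hepatocyte growth factor receptor, stood at 2.06 and 2.11 in C4-2B, 4.81 and 4.71 in VCaP, 8.66 and 8.75 in DU145, and 10.11 and 10.09 in PC3. FGF2, a fibroblast growth factor, stood at 2.16 to 3.15 against 8.07 to 8.33. EPHA2, an ephrin receptor, stood at 3.17 to 4.35 against 6.79 to 8.70. Over 42 receptor tyrosine kinases and ligands, 7 were apart and lower and none was apart and higher. Their median was -0.41, or -0.29 with no signal filter.

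TGFB1, a ligand of the transforming growth factor beta pathway, stood at 2.60 and 3.39 in C4-2B and 2.82 and 3.26 in VCaP, and at 7.44 and 7.33 in DU145 and 7.41 and 7.56 in PC3. TGFB2, a second ligand, stood at 3.34 to 4.50 against 7.95 to 9.39, and TGFBR2, the type II receptor, at 2.38 to 2.90 against 7.47 to 8.90. In 38 genes of the pathway and of bone morphogenetic proteins, 6 were apart and lower and none apart and higher, with a median of -0.30 that became -0.10 without DU145 and -0.11 without PC3. The type I receptor TGFBR1 overlapped between the classes, with a difference of -0.11.

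Matrix and adhesion genes were lower in large numbers. PLAU, the urokinase protease that activates plasminogen, stood at 3.26 and 2.75 in C4-2B and 3.20 and 2.75 in VCaP, and at 8.51 to 8.92 on all 4 arrays of DU145 and PC3. Its difference was -5.75 ± 0.26 (SE), 53.7-fold. TIMP1, an inhibitor of matrix metalloproteinases, stood at 2.94 to 3.46 against 8.08 to 8.83, and PLAUR, the urokinase receptor, at 3.12 to 3.54 against 5.83 to 6.81. ITGA3, a laminin-binding integrin, stood at 3.93 to 5.43 against 9.53 to 9.75, and ITGB4, a hemidesmosome integrin, at 2.61 to 3.14 against 6.60 to 9.21. LAMB3, a laminin chain of the basement membrane, stood at 2.71 to 3.24 against 7.14 to 7.60. Of 40 integrins, laminins and collagens 8 were apart and lower and none apart and higher, and of 28 proteases and inhibitors also 8 and none. The medians were -1.18 and -1.14, and the first became -0.39 without PC3. With no signal filter they were -0.90 and -0.83.

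**Figure D3:**
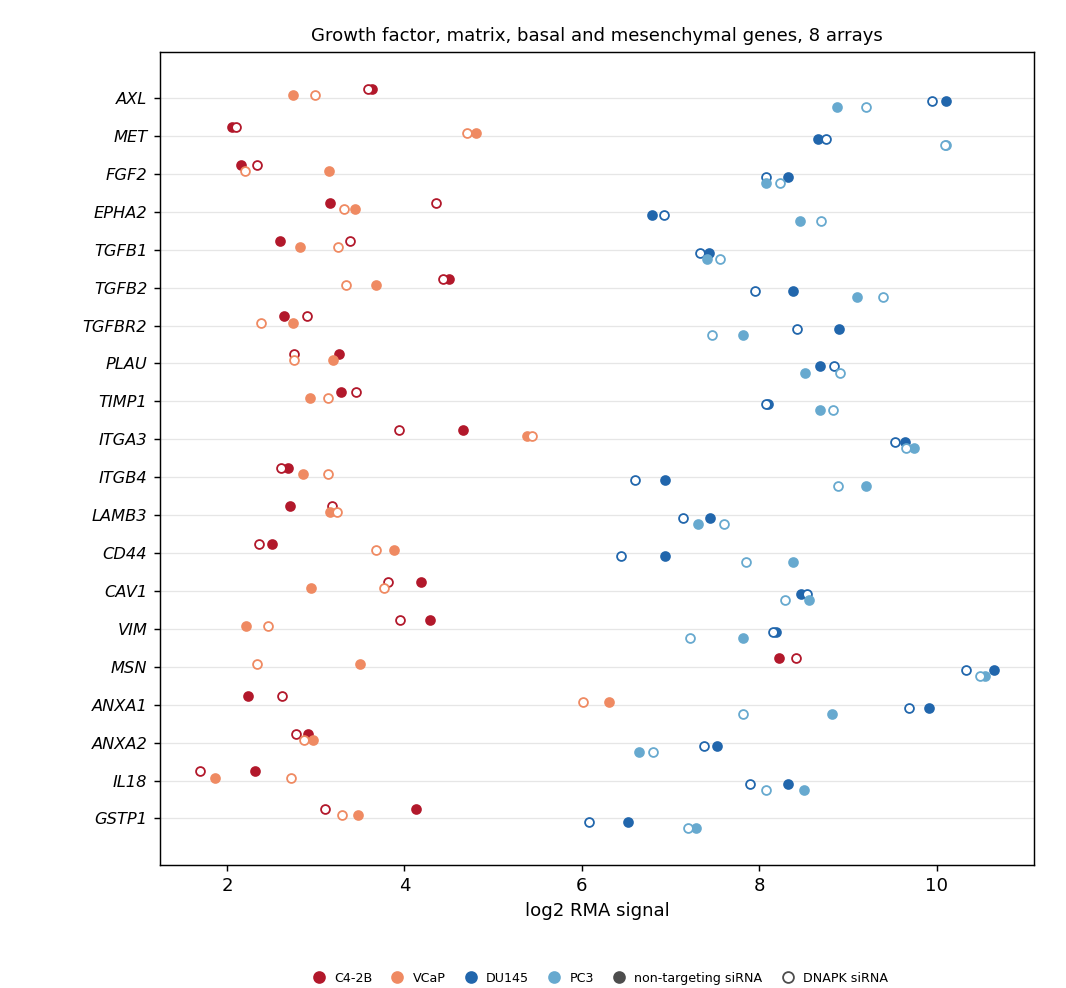
Log2 RMA signal (x axis) of 20 growth factor, matrix, basal and mesenchymal genes on the 8 arrays, with colours for lines, filled points for non-targeting siRNA and open points for DNAPK siRNA. For PLAU and TGFB1 the classes form 2 tight groups, while for MSN the C4-2B points lie near DU145 and PC3 and for ANXA1 the VCaP points lie between.

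Basal and mesenchymal markers were lower, with unequal lines. CAV1 (caveolin) stood at 3.82 and 4.19 in C4-2B and 2.95 and 3.77 in VCaP, against 8.29 to 8.56. SFN, an epithelial 14-3-3 protein, stood at 3.25 to 4.35 against 8.51 to 9.09. VIM, the mesenchymal intermediate filament, stood at 4.29 and 3.95 in C4-2B, 2.22 and 2.47 in VCaP, 8.19 and 8.15 in DU145 and 7.82 and 7.22 in PC3. MSN, which ties the membrane to actin, was low in VCaP alone, at 3.50 and 2.34 against 8.22 and 8.42 in C4-2B and 10.33 to 10.65 in the other class. CDH2, the neuronal cadherin often used as a mesenchymal marker, was high in PC3 alone, at 7.77 and 7.72, and at 2.25 and 2.06 in DU145. Of 36 mesenchymal genes, 30 were below 0 and 12 were apart and lower, with a median of -1.69 against 0.02 for all genes and of -0.84 without PC3. Of 18 basal markers 16 were below 0 and 6 were apart and lower. Of all 16796 genes tested, 8187 were below 0 and 2.26% were apart and lower. The 2 basal markers above 0 were both higher in C4-2B and VCaP without overlap. The basal median was -1.25, or -0.64 without PC3 and -0.97 with no signal filter. Luminal markers had no such balance: of 21 tested 3 were apart and higher and 3 apart and lower, the latter MUC1, KRT7 and KRT19, with a median of 0.04.

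YAP and TEAD target genes had a median of -1.66, or -1.07 without DU145, and of 30 tested 28 were below 0 and 9 apart and lower. MYOF, a membrane-repair protein, stood at 3.36 and 3.58 in C4-2B, 4.41 and 3.76 in VCaP, 10.56 and 10.38 in DU145, and 10.10 and 10.21 in PC3, a difference of -6.53 ± 0.35 (SE) or 92.7-fold. CCN1, a secreted matrix protein, stood at 4.12 to 4.72 against 7.98 to 8.23. ANKRD1, a muscle ankyrin repeat protein, stood at 1.94 to 2.33 against 5.45 to 6.57. Of the coactivators themselves, WWTR1, which encodes TAZ, stood at 2.42 to 3.62 against 5.61 to 6.32, and YAP1 at 6.46 to 7.01 against 7.59 to 8.15. The list shares members with the mesenchymal and receptor kinase lists, AXL among them.

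FOSL1, a subunit of AP-1, differed more than the other AP-1 genes looked at. It stood at 3.67 and 3.06 in C4-2B, 3.21 and 4.10 in VCaP, 7.81 and 8.68 in DU145, and 10.19 and 10.29 in PC3, a difference of -5.73 ± 0.73 (SE). FOSL2 differed by -1.49, without overlap. FOS, FOSB, JUN, JUNB and JUND overlapped between the classes. The AP-1 genes were chosen after their values were seen.

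Promoters of 4 lower genes with AP-1 letters are shown, because FOSL1 belongs to the factors that bind them. Capitals mark the match to TGANTCA, searched on both strands, and in ANKRD1 also the TEAD letters GGAATG. The SFN stretch is chr1:26862929-26863028 (plus strand), between 220 and 120 bases before the start. The GSTP1 stretch is chr11:67583702-67583801 (plus strand), between 110 and 10 bases before the start, and GSTP1 is a glutathione transferase known to be silenced in prostate cancer. The PLAUR stretch is chr19:43670310-43670409 (minus strand), between 240 and 140 bases before the start. The ANKRD1 stretch is chr10:90921198-90921327 (minus strand), between 240 and 110 bases before the start. All are RefSeq promoters of GRCh38.p14.
SFN: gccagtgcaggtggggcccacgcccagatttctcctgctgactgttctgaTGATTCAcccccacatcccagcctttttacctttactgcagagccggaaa
GSTP1: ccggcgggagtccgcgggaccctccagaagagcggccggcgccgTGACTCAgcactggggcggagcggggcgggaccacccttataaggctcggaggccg
PLAUR: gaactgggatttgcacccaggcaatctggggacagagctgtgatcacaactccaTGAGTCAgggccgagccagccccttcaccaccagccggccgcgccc
ANKRD1: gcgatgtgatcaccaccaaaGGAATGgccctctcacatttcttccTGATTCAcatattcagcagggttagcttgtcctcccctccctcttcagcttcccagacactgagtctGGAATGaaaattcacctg

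In the 250 bases before the start, the AP-1 letters occurred in 549 of 12449 promoters (4.41%). They occurred in 25 of 286 promoters (8.74%) of genes apart and lower and in 4 of 144 (2.78%) of genes apart and higher. The TEAD letters occurred in 9.61% of all promoters, in 12.2% of the lower and 6.94% of the higher genes. The letters TATAAA occurred in 4.39% of all promoters, in 7.69% of the lower and 8.33% of the higher genes, and the forkhead letters TGTTTAC in 2.02%, 1.75% and 0.694%. AACCNGTT, a grainyhead motif, occurred in 1.16%, 1.75% and 0.694%, and the E-box CAGGTG in 17.1%, 18.2% and 20.1%. Median GC content was 64.0% for all promoters, 65.0% for the higher and 65.2% for the lower genes. The shares are descriptions without a test, and a match is not a bound site. GSTP1 itself stood at 4.13 and 3.10 in C4-2B, 3.48 and 3.30 in VCaP, 6.52 and 6.08 in DU145 and 7.28 and 7.20 in PC3.

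**Figure D4:**
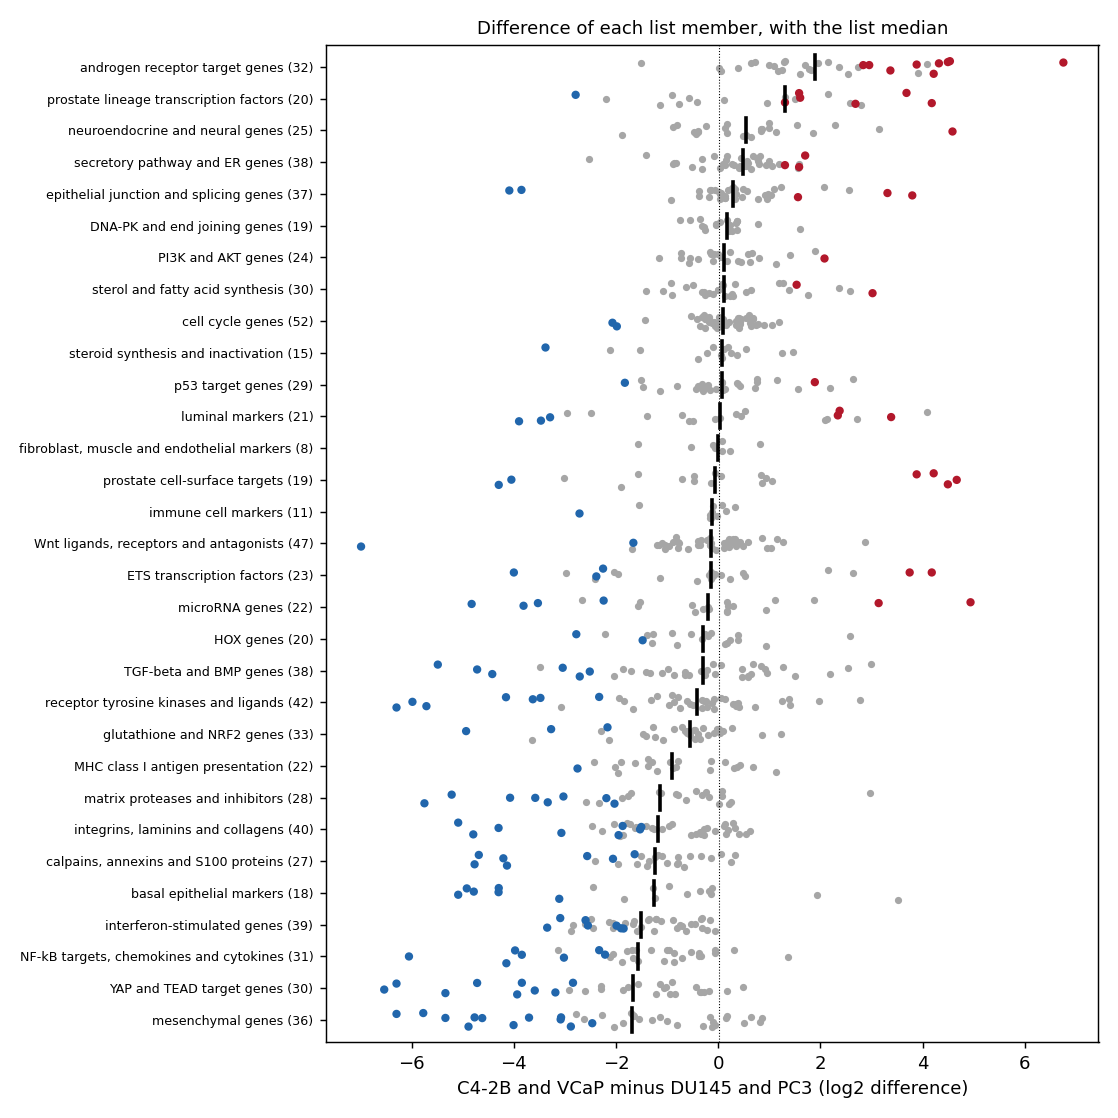
Class difference (x axis, log2) of each tested member of 31 gene lists, sorted by median, with the number tested in parentheses, the median as a black bar and the median of all genes as a dotted line. Coloured points are members apart by 1 or more; red ones gather in the androgen receptor target and lineage lists and blue ones in the mesenchymal, YAP and TEAD, NF-kB and interferon lists.

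IL18, a cytokine processed by inflammasomes, stood at 2.32 and 1.69 in C4-2B, 1.87 and 2.73 in VCaP, 8.33 and 7.90 in DU145, and 8.51 and 8.08 in PC3. LIF, a cytokine of the interleukin-6 family, stood at 2.24 to 3.83 against 6.48 to 7.16. Of 31 NF-kB targets, chemokines and cytokines 29 were below 0 and 7 apart and lower, with a median of -1.57, or -1.03 with no signal filter. All 39 interferon-stimulated genes tested were below 0, with a median of -1.50, or -0.68 without PC3, and 7 were apart and lower. DU145 minus PC3 had a median of -0.98 over this list. OAS2, an RNA sensor, shows it, at 2.90 and 3.16 in DU145, with 2.15 to 2.50 in C4-2B and VCaP. In PC3 it stood at 6.67 with non-targeting siRNA and was higher by 1.33 with DNAPK siRNA. The median response of the list to DNAPK siRNA was 0.80 in PC3, and -0.04, -0.04 and -0.11 in C4-2B, VCaP and DU145. The list's median class difference was -1.35 with the non-targeting arrays alone and -1.56 with the DNAPK siRNA arrays alone. CGAS, the DNA sensor upstream of interferon, stood at 1.27 to 2.13 against 5.15 to 6.54, and was named after its values were seen. HLA-E, a nonclassical MHC class I molecule, stood at 6.01 and 6.42 in C4-2B and 4.43 and 4.81 in VCaP, against 7.95 to 8.47. It was the gene apart by 1 or more among 22 tested for MHC class I antigen presentation, of which 16 were below 0 and 6 above.

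Of the list of annexins and S100 proteins, which bind calcium, and calpains, calcium-dependent proteases, 24 of 27 tested were below 0, with a median of -1.23, and 7 were apart and lower. ANXA2 stood at 2.78 to 2.97 against 6.65 to 7.52. ANXA1 stood at 2.24 and 2.62 in C4-2B and 6.31 and 6.01 in VCaP, against 7.82 to 9.91. Of the enzymes, CDA, cytidine deaminase, which inactivates cytosine-type nucleoside drugs, had the smallest unadjusted p of all genes. It stood at 2.38 and 1.99 in C4-2B, 1.95 and 2.34 in VCaP, 9.38 and 8.50 in DU145, and 8.73 and 8.34 in PC3, a difference of -6.57 ± 0.29 (SE). Its level in C4-2B and VCaP lay below the signal filter of 2.51, so no fold is given. ABCC3, a drug and bile-salt exporter, stood at 3.29 to 4.09 against 7.97 to 8.99. DKK1, a secreted Wnt antagonist, stood at 1.99 to 2.70 against 7.80 and 7.75 in DU145 and 10.96 and 10.90 in PC3. Besides DKK1, the Wnt list of 47 tested genes held 1 other gene apart by 1 or more, the transcription factor TCF7L2, at 5.41 to 6.15 against 7.22 to 7.78.

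The remaining lower genes of smallest p were chosen as having no overlap. GPRC5A, a retinoic-acid-induced receptor, stood at 2.48 to 3.25 against 8.11 to 8.53. SERPINB1, a protease inhibitor, stood at 2.24 to 2.89 against 7.68 to 8.12. DCBLD2, a membrane protein, stood at 5.77 to 6.26 against 10.32 to 10.66, and BASP1 at 2.99 to 3.71 against 8.12 to 9.32. IFNE, an epithelial interferon, stood at 1.62 to 1.90 against 4.46 to 6.37, and its adjusted p by limma with the random block was 0.0649, so that fit did not call it.

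Cell cycle genes had a median of 0.09 over 52 tested, or 0.34 without VCaP. DNA-PK and end joining genes had a median of 0.17 over 19, or -0.19 without VCaP and -0.05 without PC3, and none was apart by 1 or more. LIG3, a DNA ligase, differed most among those without overlap, by 1.61, and the cell cycle factor E2F3 by 1.20. The inhibitors CDKN2A and CDKN2B were the only cell cycle genes apart. CDKN2B stood at 3.03 to 3.53 against 4.98 to 5.53. CDKN2A stood at 3.19 to 3.27 in C4-2B and VCaP, 6.18 and 6.12 in DU145 and 4.42 and 4.46 in PC3. Genes of p53 response and of PI3K and AKT signalling had medians of 0.07 and 0.12. PIK3R1, the regulatory subunit of PI3K, was the gene apart in the latter list, at 7.66 to 8.08 against 5.07 to 6.64.

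MicroRNA genes differed in both directions. The array reads the gene or precursor, not the mature form. MIR21 stood at 4.28 and 3.65 in C4-2B, 3.56 and 3.85 in VCaP, and 7.45 to 7.95 in DU145 and PC3, a difference of -3.81 ± 0.28 (SE). MIR29A stood at 1.30 to 1.87 against 4.37 to 5.85, and MIR31HG, the host of miR-31, at 2.72 to 3.25 against 6.92 to 8.29. MIR99AHG, host of the miR-99a and let-7c cluster, stood at 6.23 to 7.81 against 2.02 to 2.12. The mature sequences are shown, with the seed (bases 2 to 8) in capitals, because some genes whose mature forms share a seed differed in opposite directions. Levels of the mature forms were not measured.
hsa-let-7c-5p: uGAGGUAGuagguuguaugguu
hsa-let-7a-5p: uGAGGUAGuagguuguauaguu
hsa-miR-29a-3p: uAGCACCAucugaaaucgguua
hsa-miR-29c-3p: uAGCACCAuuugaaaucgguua
hsa-miR-21-5p: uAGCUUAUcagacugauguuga
hsa-miR-31-5p: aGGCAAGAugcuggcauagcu
The let-7c gene MIRLET7C was higher in C4-2B and VCaP by 3.14. The let-7a gene MIRLET7A2, with the same seed, was lower by -4.10, and its high level was in PC3 (8.40 and 7.93, against 3.07 and 3.23 in DU145). In the miR-29 family MIR29A differed by -3.53 and MIR29C by 1.16, both without overlap. MIR29C and MIRLET7A2 were named after their values were seen.

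Genes apart by 1 or more often lay beside each other in the order of RefSeq genes. Of the 193 higher genes, 31 (16.1%) had a neighbour also apart and higher, and 2.25% of all genes had one. Of 376 lower genes with a position, 50 (13.3%) had a neighbour apart and lower, and 4.47% of all genes had one. STEAP1, STEAP2 and the antisense STEAP2-AS1 formed one run, and ELF5 with EHF another. On the lower side MIR31HG, IFNE and MIR31 were a run, as were CDKN2A with CDKN2B, CAV1 with MET, and KRT80 with KRT7. Members of the SNORD116 cluster also stood together, but these near-identical small RNAs may share probes and their separate values are uncertain. They are counted among the 31. Other runs hold transcripts of 1 locus, such as STEAP2 with STEAP2-AS1 and MIR31 with its host MIR31HG. The shares with a neighbour therefore do not rest on separate loci alone.

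The class difference was set beside the response to DNAPK siRNA. The response of C4-2B and VCaP minus that of DU145 and PC3 had 0 genes at an adjusted p of 0.05 by limma, 0.0% of those tested, and the smallest was 0.991. An unadjusted p under 0.05 was seen for 621 genes, or 3.70%. Genes apart by 1 or more moved by over 1 with the siRNA in 6 of 573 cases (1.05%) in C4-2B, against 0.583% of all genes. In VCaP it was 40 (6.98%) against 3.70%, in DU145 22 (3.84%) against 1.12%, and in PC3 8 (1.40%) against 1.07%. Across genes, the 2 arrays of VCaP had a Pearson correlation of 0.974, against 0.986 to 0.990 in the other lines. With 1 array per treatment and line these responses have no replicate check. An effect of the siRNA and noise between arrays cannot be told apart in these responses. SYT4 in VCaP was among them, at 9.16 with non-targeting and 7.25 with DNAPK siRNA, as was IFNE in DU145, at 6.37 and 4.46.

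**Figure D5:**
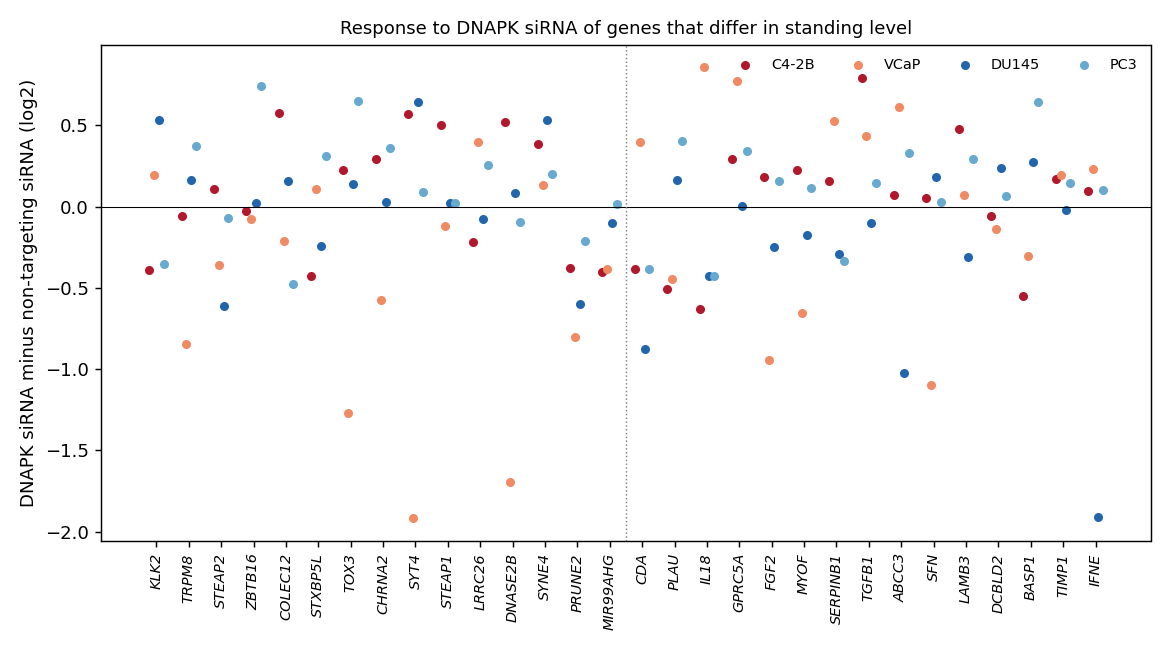
Response to DNAPK siRNA (y axis, DNAPK siRNA minus non-targeting siRNA, log2) of the 15 leading higher genes (left of the dotted line) and 15 leading lower genes (right) in each line. Most points lie within 1 of 0, with SYT4, DNASE2B, TOX3 and SFN in VCaP and IFNE and ABCC3 in DU145 below -1.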

How the data were processed

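Total RNA (400 ng per sample, per the labels' protocols) was hybridised to Affymetrix whole-transcript arrays. The authors deposited log2 signals per probe set, made with oligo and RMA per the submitters' processing notes, which makes array distributions alike, with no version. Of 53617 probe sets, 23871 had 1 gene symbol, 1842 several and 27904 none here. The probe set with the highest mean stood for each of 22395 genes, and genes at or below the 25th percentile (2.51) were set aside. The array design's build is not stated. Sequences and gene order are from RefSeq GRCh38.p14.

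The 2 arrays of a line were averaged and 2 line means compared with 2 (limma 3.58.1, R 4.3.3; 2 residual degrees of freedom, 4.30 with the prior), 2-sided, at an adjusted p of 0.05. Averaging balances the siRNA. Each line and siRNA had 1 culture. SEs and p-values reflect the spread of 2 lines in a class, moderated by a prior shared by all genes. That prior holds 2.30 of the 4.30 degrees of freedom, so for genes with near-equal lines it sets most of the SE. The fit was tested on 10 simulated data sets with 200 changed genes; 0.00904% of unchanged genes were called.

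Named genes are the androgen receptor gene (not analysed here), KLK2, KLK3, TMPRSS2, ERG, VIM, CDH1 and PRKDC, the 15 without overlap of smallest p in each direction, and in each of 31 lists the 4 members without overlap of largest difference. Others were chosen after their values were seen. Members and lists were chosen with earlier results of these data known. Several listed genes have no probe set of 1 symbol and were not analysed here.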

Additional observations from a re-analysis of the deposited data

Results flagged for a closer look

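Data outside the comparison of named genes also separated the classes. Of 15154 probe sets that carry no gene name here, or more than 1, and that passed the signal filter, 269 (1.78%) stood apart by 1 or more on all 8 arrays, 125 higher and 144 lower in C4-2B and VCaP, against 3.41% of the named genes. By limma on the 4 line means 0 of them had an adjusted p under 0.05, the smallest was 0.0686, and 1152 had an unadjusted p under 0.05.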

How the results depend on the processing

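The main fit called 0 genes in each direction. So did the non-targeting arrays alone, the DNAPK siRNA arrays alone, centring and cyclic loess. No filter, the mean of a gene's probe sets and a trended prior also gave 0. Fits without 1 line leave 1 line in a class and 1 residual degree of freedom, so only their differences are given. Higher and lower calls numbered 137 and 279 with the line as a random block, 565 and 812 with no replicate block, 3600 and 3820 (44.2% of genes) with a fixed term per line, and 16 and 44 among genes above the median signal. The fits on arrays treat arrays of a line as further replicates or as a fixed set of lines. Genes apart by 1 or more numbered 323 higher with the non-targeting arrays alone and 291 with the DNAPK siRNA arrays alone, against 193 on all 8, since fewer arrays must be apart. Leaving out 1 line gave 419 (without DU145) to 649 (without C4-2B) higher and 681 (without VCaP) to 874 (without DU145) lower. Leaving out 1 line moved ERG between -0.0473 (without VCaP, reversed) and 5.33 (without C4-2B), and PRKDC between -0.370 (without VCaP, reversed) and 1.09 (without C4-2B), from 2.64 and 0.36 on all arrays. The response by class also had 0 calls with each array centred on its median and with no filter. The culture medium pairs C4-2B with PC3 and VCaP with DU145. With medium as a block, chosen after seeing the data, 1 residual degree of freedom remained before the prior, limma called 0 genes, the smallest adjusted p was 0.196 and 1522 genes had an unadjusted p under 0.05. No paired analysis was possible by replicate number, because each line and siRNA has 1 array. Low signals near the bottom of the range limit the folds.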

Other observations

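Some related genes stood in opposite directions in the classes. They were picked after their values were seen, and no test was made of the pairs. TMT1A, a thiol methyltransferase, stood at 7.68 to 8.62 in C4-2B and VCaP and at 2.49 to 4.49 in DU145 and PC3, while its paralogue TMT1B stood at 2.60 to 3.37 and 6.58 to 7.23. GREB1, known as a hormone-induced gene, stood at 6.43 to 7.07 against 2.62 to 3.40, while GREB1L stood at 3.22 to 4.78 against 5.84 to 6.18. In neither pair did the classes overlap for either gene.

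APOBEC3C, a cytidine deaminase that restricts viruses, stood at 2.61 and 1.59 in C4-2B, 2.79 and 2.45 in VCaP, 8.29 and 8.43 in DU145, and 11.14 and 10.45 in PC3. Its neighbour APOBEC3D stood at 3.57 to 4.17 against 5.32 to 6.43. These are near-identical family members that may share probes, so their separate values are uncertain.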
